A study of Mus musculus with 6 samples.

Results

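The 39 genes described here take part in the type I interferon response, in which cells switch on antiviral genes after interferon alpha or beta binds its receptor. Not all of the 39 are themselves strongly induced by interferon, Irf3 being an example. The 39 genes were chosen by name, with earlier results of these data known. All 39 were found among the 24197 genes of the deposited comparison of male with female mouse liver. The mice were intact adults of CD-1, an outbred stock, with no treatment named. Poly-A selected RNA was sequenced from 3 male and 3 female pools of livers, in libraries that keep the strand. Each pool held 12 to 17 livers. Male mice were 7 to 9 weeks old and female mice 7 to 11 weeks. The sexes thus also differed in oldest age, and may have differed in pool size. Values are the authors' mean FPKM over the 3 pools of a sex (fragments scaled to gene length and library size, so that levels of different genes can be compared). Values of single pools were not used here, so means carry no standard deviation, and the authors' adjusted p-value in their deposited table is the test reported. A gene is said to be called, or to be higher in a sex, where that p-value is under 0.05.

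Interferon alpha and beta signal through a receptor made of Ifnar1 and Ifnar2, whose kinases Jak1 and Tyk2 phosphorylate STAT proteins. Phosphorylated Stat2 joins Irf9 in a complex that binds the interferon-stimulated response element, a repeated GAAA motif near the start of the responding genes. The products block viral entry, degrade viral RNA, stop translation, sense foreign nucleic acid and load peptides for T cells, and in the liver both hepatocytes and resident macrophages can make this response. Many responding genes are also transcribed at a low level without infection.

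The response element itself can be read in the promoters of several members, which are shown for called members that carry it and for an uncalled one. The windows are the 250 bases before the annotated start, from RefSeq on GRCm38.p6, a later build than the mm9 of the deposited coordinates, and capitals mark each match to GAAANNGAAA on either strand, overlapping matches included. Isg15, Ifit1, Ifit3 and Rsad2 were higher in female liver, and Bst2, which carries the element too, was not called.
Isg15 (chr4:156200819-156201068, strand -): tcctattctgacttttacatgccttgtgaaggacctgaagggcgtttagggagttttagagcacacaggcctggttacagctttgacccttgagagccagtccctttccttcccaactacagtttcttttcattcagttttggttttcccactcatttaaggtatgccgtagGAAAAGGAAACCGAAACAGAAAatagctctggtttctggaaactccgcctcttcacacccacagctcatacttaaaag
Ifit1 (chr19:34640639-34640888, strand +): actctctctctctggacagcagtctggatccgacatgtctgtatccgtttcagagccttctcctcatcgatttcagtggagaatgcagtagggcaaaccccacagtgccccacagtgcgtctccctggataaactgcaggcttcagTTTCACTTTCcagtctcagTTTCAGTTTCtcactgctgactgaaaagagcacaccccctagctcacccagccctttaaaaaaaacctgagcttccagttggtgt
Ifit3 (chr19:34583279-34583528, strand +): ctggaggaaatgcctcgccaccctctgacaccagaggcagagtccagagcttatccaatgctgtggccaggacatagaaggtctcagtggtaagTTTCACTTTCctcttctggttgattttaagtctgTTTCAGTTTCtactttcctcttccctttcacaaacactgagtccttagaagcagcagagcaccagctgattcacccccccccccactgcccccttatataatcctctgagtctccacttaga
Rsad2 (chr12:26456453-26456702, strand -): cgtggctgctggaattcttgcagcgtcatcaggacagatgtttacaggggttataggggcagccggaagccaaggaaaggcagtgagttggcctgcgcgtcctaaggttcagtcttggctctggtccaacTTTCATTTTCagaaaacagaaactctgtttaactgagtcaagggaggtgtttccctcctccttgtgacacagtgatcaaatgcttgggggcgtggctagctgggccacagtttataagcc
Bst2 (chr8:71537473-71537722, strand -): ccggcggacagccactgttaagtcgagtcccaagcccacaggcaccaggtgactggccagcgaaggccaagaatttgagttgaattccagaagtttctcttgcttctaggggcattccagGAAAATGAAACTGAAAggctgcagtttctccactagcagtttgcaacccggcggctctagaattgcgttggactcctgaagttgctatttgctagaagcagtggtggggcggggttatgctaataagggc
Isg15 had 3 overlapping matches in 1 run, Bst2 had 2 overlapping matches, Ifit1 and Ifit3 had 2 separate matches each and Rsad2 had 1. The last 60 bases before the start of the neighbouring genes Oas1a and Oas1g show how alike these copies are: with the sequences shifted by 2 bases, 57 of 58 aligned bases were identical, both overlapping matches included.
Oas1a (chr5:120907526-120907585, strand -): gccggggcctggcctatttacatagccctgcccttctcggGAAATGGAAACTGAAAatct
Oas1g (chr5:120887614-120887673, strand -): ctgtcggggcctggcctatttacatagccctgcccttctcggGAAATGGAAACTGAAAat

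A promoter window was matched for 28 of the 39 members, and each window runs from 250 bases before to 50 bases after the start. The motif GAAANNGAAA was present in 14 of the 28 members (50%), against 3.44% of all 32851 windows and 3.99% of the 27025 genes with a window. In 10 of these members a match lay wholly before the start, between bases -222 and -3, and in Ddx58, Eif2ak2, Ifih1 and Ifitm3 the matches lay after it. The other motif searched was TTCNNNGAA, a palindrome bound by STAT dimers. It was present in 9 of the 28 members (32.1%), against 8.30% of all windows and 9.55% of all genes with a window. Of the 10 members that had a window and were higher in female liver, 6 held GAAANNGAAA, and of the 18 that had a window and were not called, 8 held it. TTCNNNGAA was held by 2 of the same 10 and by 7 of the same 18. The members were chosen as genes of the interferon response, and a match is a description of the sequence, not a site shown to be used.

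**Figure D1:**
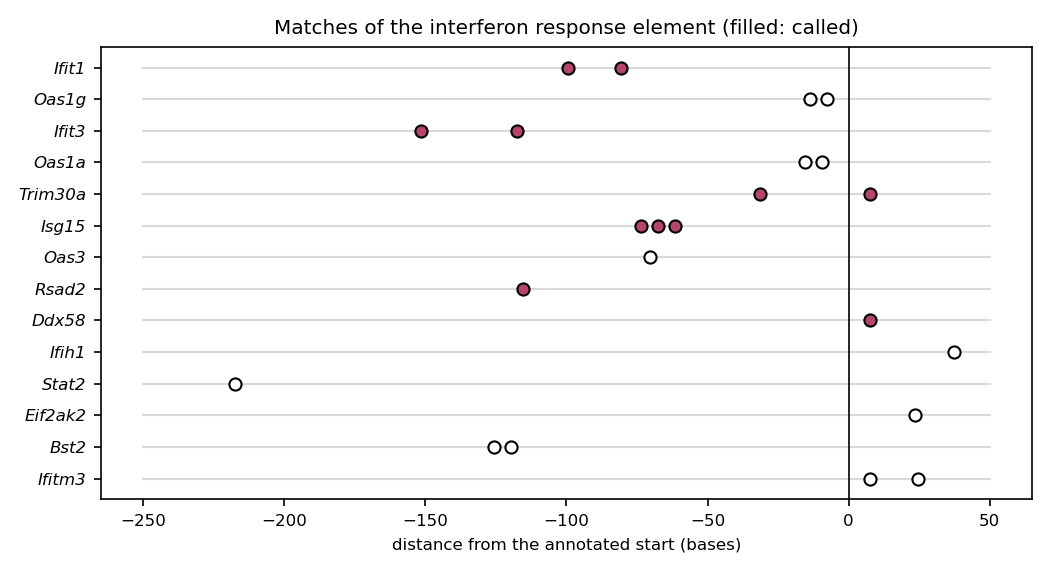
Position of each GAAANNGAAA match relative to the annotated start (0) in the 14 members that hold one, in bases, with genes ordered from the largest to the smallest fold between the sexes. Filled points are members higher in female liver and open points are members not called; the 2 points of Trim30a come from its separate annotated starts. Matches of filled members lie between bases -156 and 12, and those of open members between bases -222 and 42.

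Interferon response genes lay toward female liver. Of the 39 members, 14 were higher in female and 0 in male livers by the authors' deposited table, against 5.44% and 4.61% of the 17997 genes above 0 FPKM in either sex. The 14 were Irf7, Ddx58, Zbp1, Oasl2, Ifit1, Ifit2, Ifit3, Rsad2, Samhd1, Isg15, Parp14, Rtp4, Trim30a and Tap2. Their folds by the authors' deposited table ran from 1.25 to 2.10, with a median of 1.51, and 2 of them, Ifit1 and Zbp1, reached 2-fold. Of the 25 members that were not called, 21 had a ratio toward female liver, while Irf3, Ifi35, Ifitm3 and Bst2 had ratios toward male liver of at most 1.06. The authors' ratio is scaled apart from the FPKM, and for Irf3 and Ifitm3 the mean FPKM itself was slightly higher in female liver. The table gives no unadjusted p-value, and at an adjusted p under 0.1 the count toward male liver was also 0. Over the 34 members with a mean of 0.5 FPKM or more the median log2 ratio of male over female was -0.41, and over all 10936 genes at that level it was 0.01. Other call rules gave 11 members toward female liver at an adjusted p under 0.01 (3.53% of all genes), 15 under 0.1 (6.82%), 7 with a fold of at least 1.5 besides (3.29%), 14 with a mean from 0.5 FPKM up (7.14%) and 8 with one from 2 FPKM up (7.11%). Toward male liver each of these rules gave 0 members, against 3.19%, 5.77%, 2.36%, 6.68% and 7.73% of all genes. Seen as a share of members, 35 of 39 had a ratio toward female liver (89.7%), against 50.6% of all genes above 0.

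**Figure D2:**
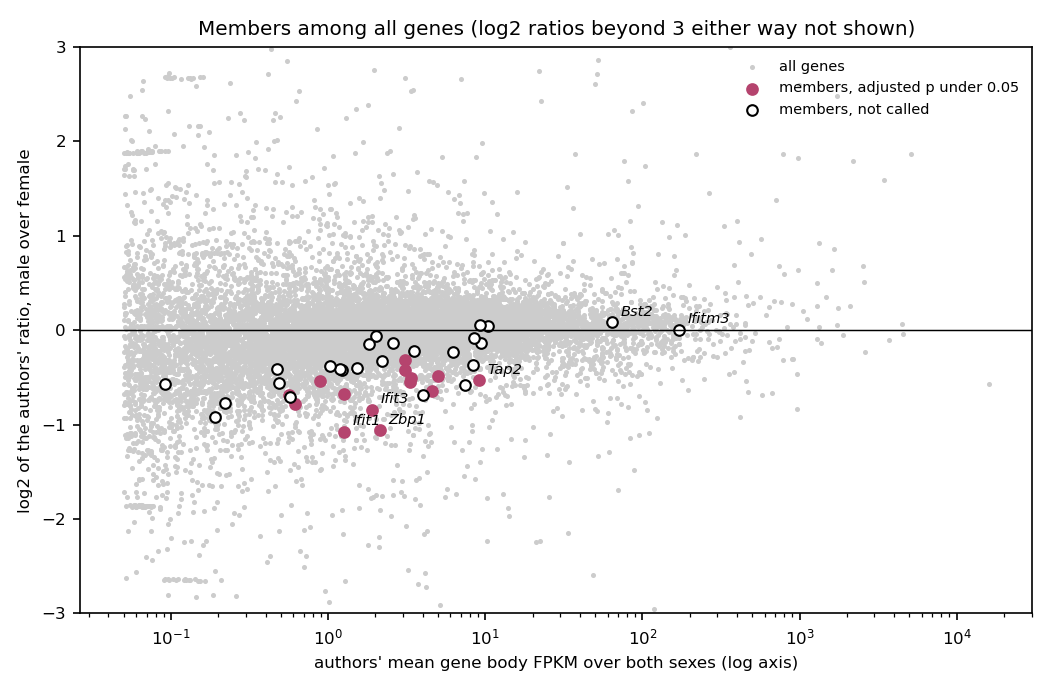
Log2 of the authors' ratio of male over female against the authors' mean gene body FPKM over both sexes (log axis), with 1 point for each gene with a mean above 0.05 FPKM. Filled points are the 14 members higher in female liver, open points the 25 not called and grey points all genes; members lie mostly below 0, and the most abundant, Bst2 and Ifitm3, lie at 0.09 and 0.01.

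The libraries held 28358105 to 42673908 reads each, as recovered from the lowest FPKM values, with 107780368 reads in all in females and 108817317 in males. In 1 pool, 1 read over 1000 bases thus adds between 0.00781 and 0.0118 to a mean. From exon lengths in GENCODE M21, the 3 pools of a sex were estimated to hold 28 reads (Oas1g, male) to 12778 reads (Ifitm3, female) of a member, and at least 149 of any member that was called. The 8 hepatocyte markers, among them Alb and Hnf4a, had means between 65.9 and 19411 FPKM in either sex, as the label of liver implies. Of these 8, 2 were higher in female liver and 3 in male liver by the authors' deposited table. Folds there toward female liver were 1.48 for Alb and 1.38 for Cps1. Toward male liver they were 1.61 for Apoa1, 1.51 for Serpina1a and 1.27 for Apob.

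Levels of the members spanned a wide range. Ifitm3 stood at 174.9 FPKM in female liver and 169.2 FPKM in male liver, and Bst2 at 63.6 and 65.1 FPKM; these 2 genes made up 63.1% of the members' summed level in female liver. Irf3, at 10.5 FPKM in both sexes, came next, and 27 members had means between 1 and 10 FPKM. The remaining 9 were under 1 FPKM, down to Oas3. By level, 0 of the 3 members above 10 FPKM were called, 11 of the 27 between 1 and 10 FPKM, and 3 of the 9 below 1 FPKM. Shares of all genes within these ranges were not worked out, so no trend with level is read from the counts. Toward female liver, 7.14% of all genes from 0.5 FPKM up and 7.11% from 2 FPKM up were called. Without Ifitm3 and Bst2 the summed level of the members was 139.4 FPKM in female liver and 106.7 FPKM in male liver. With no spread over pools used here, neighbours in this order cannot be told apart.

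**Figure D3:**
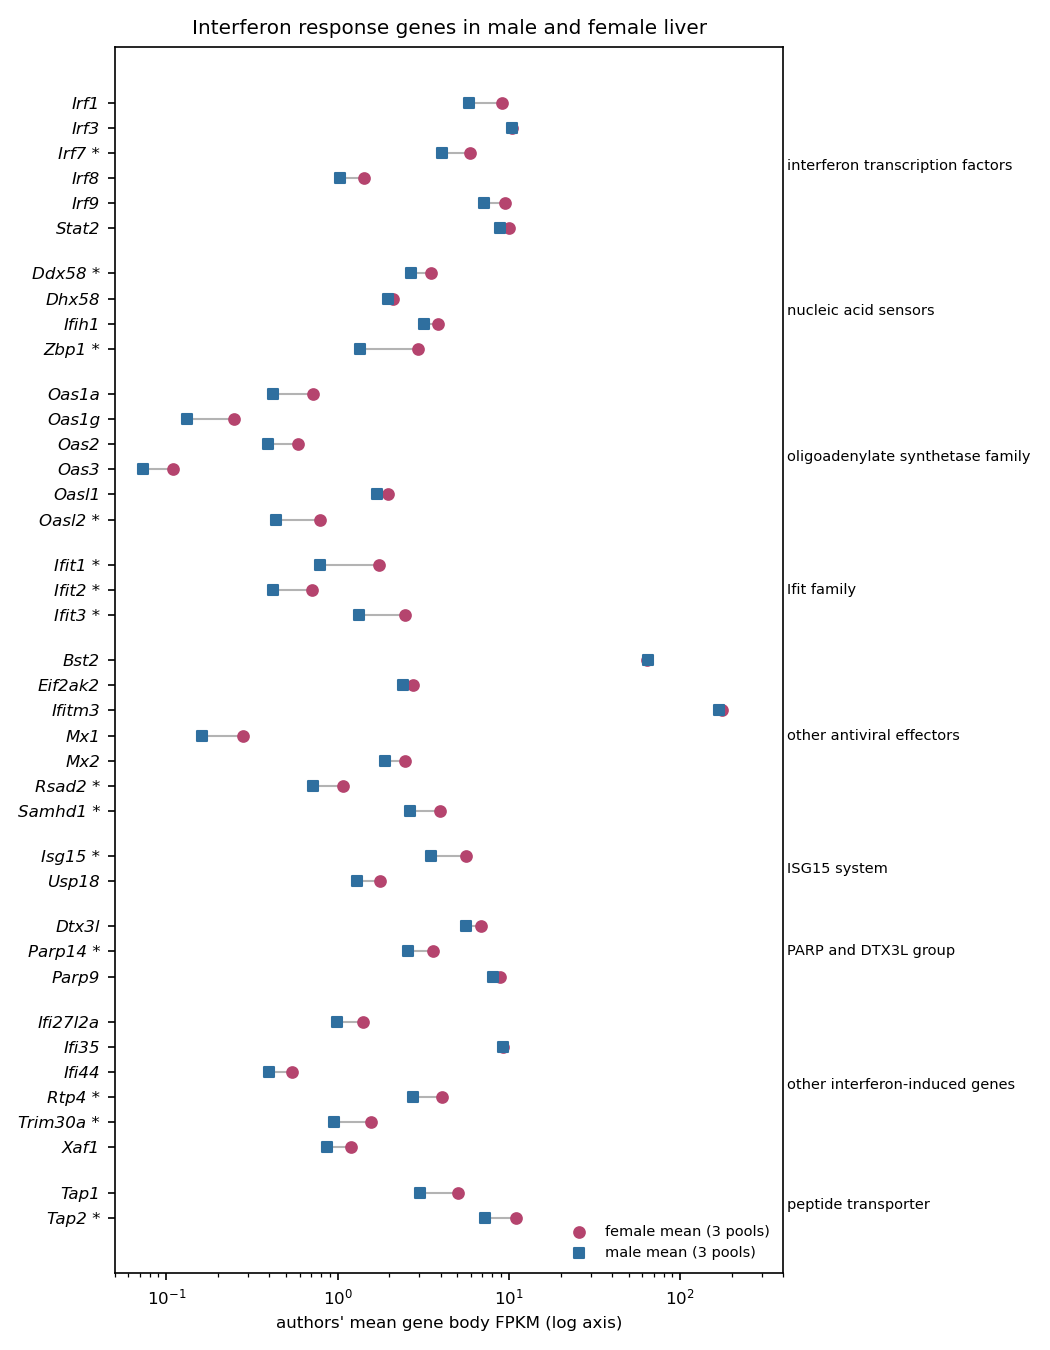
Authors' mean gene body FPKM of each member in female (circles) and male (squares) liver on a log axis, grouped by role, with 1 value a sex from 3 pools and no error bar. An asterisk marks members higher in female liver at an adjusted p under 0.05; the female point lies to the right in 37 of 39 members, the exceptions being Bst2 and Ifi35.

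Among the transcription factors of the pathway 1 of 6 was called. Irf7, the factor that amplifies interferon alpha production once induced (chromosome 7, 148449082 to 148452323, mm9), had means of 5.90 FPKM in female liver and 4.06 FPKM in male liver. It was 1.40-fold higher in female liver by the authors' deposited table, at an adjusted p of 0.00706. Irf1, a factor induced by interferon gamma and inflammatory signals, had means of 9.11 and 5.84 FPKM, female first. Its fold toward female liver by the authors' deposited table exceeded that of Irf7, but the adjusted p was 0.203. Irf8, which directs the development of dendritic cells and monocytes, had 1.43 and 1.04 FPKM with an adjusted p of 0.296. Of the partners that bind the response element, Irf9 had 9.53 FPKM in female liver and 7.12 FPKM in male liver, and Stat2 had 10.04 and 8.83 FPKM, and neither was called. Irf3, which is held inactive in the cytoplasm until a sensor fires and is not itself strongly induced by interferon, was 1.04-fold higher in male liver by the authors' deposited table, at an adjusted p of 1.

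Of the 4 nucleic acid sensors 2 were called. Zbp1, which binds Z-form nucleic acid and can start cell death (chromosome 2, 173032114 to 173044423), had means of 2.93 FPKM in female liver and 1.35 FPKM in male liver. By the authors' deposited table its fold was 2.08 with an adjusted p of 0.000358, the second largest fold of the members. Ddx58, which encodes RIG-I, the sensor of viral RNA ends (chromosome 4, 40150810 to 40186858), had 3.49 and 2.70 FPKM. At 1.25-fold with an adjusted p of 0.0192 it had the smallest fold of the called members by the authors' deposited table. Ifih1, which encodes MDA5, a sensor of long viral RNA, had 3.85 FPKM in female liver and 3.19 FPKM in male liver and was not called. Dhx58, which encodes LGP2, a helper of MDA5, stood at 2.10 and 1.96 FPKM with an adjusted p of 1.

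The Ifit genes, whose proteins bind viral RNA and hold back its translation, were called in 3 of 3 cases. Ifit1 (chromosome 19, 34715379 to 34724499) had means of 1.73 FPKM in female liver and 0.794 FPKM in male liver. Its fold of 2.10 was the largest of the 39 members by the authors' deposited table, at an adjusted p of 5.31e-06. Ifit3 (34658019 to 34663472) had 2.49 and 1.34 FPKM, a fold of 1.79 and the smallest adjusted p of the members, 1.94e-06, by the authors' deposited table. Ifit2 (34625184 to 34651024) had 0.705 and 0.421 FPKM, with a fold of 1.61 and an adjusted p of 0.00875 by the authors' deposited table. Female means were higher for each of the 3 genes, which lie in the same stretch of chromosome 19, with 7.0 kb between Ifit2 and Ifit3 and 51.9 kb between Ifit3 and Ifit1. Gm14446, I830012O16Rik and 2010002M12Rik, related genes that are not members, lie between Ifit3 and Ifit1. The near copy of Ifit3 is I830012O16Rik, at 0.882 and 0.505 FPKM and also called by the authors' deposited table (1.69-fold, adjusted p 0.0110), and how reads were split between the copies is uncertain.

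The oligoadenylate synthetase family, named for enzymes that make the messenger that activates RNase L, was low in both sexes, and 1 of 6 genes was called. Oasl2, an OAS-like protein with ubiquitin-like domains (chromosome 5, 115346943 to 115362254), had means of 0.791 FPKM in female liver and 0.439 FPKM in male liver. By the authors' deposited table its fold was 1.72 with an adjusted p of 0.00674. Its neighbour Oasl1, a translational repressor of Irf7 in mouse, had 1.96 and 1.70 FPKM with an adjusted p of 1. Oas1a and Oas1g had folds of 1.63 and 1.89 toward female liver by the authors' deposited table, as large as those of called members, but adjusted p-values of 0.258 and 0.153. These close copies stood at 0.715 and 0.249 FPKM in females, with 0.421 and 0.131 FPKM in males, and Oas1g rested on an estimated 53 female and 28 male reads. Oas2 stood at 0.586 and 0.390 FPKM and Oas3 at 0.110 and 0.0736 FPKM, female first, and neither was called.

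Among the other antiviral effectors 2 of 7 were called. Samhd1, which depletes the nucleotides that reverse transcription needs (chromosome 2, 156923265 to 156960958), had means of 3.98 FPKM in female liver and 2.63 FPKM in male liver. It was 1.46-fold higher in female liver by the authors' deposited table, at an adjusted p of 0.000664. Rsad2, which encodes viperin, an enzyme that makes a chain-terminating nucleotide (chromosome 12, 27127608 to 27141317), had 1.07 and 0.714 FPKM. Its fold was 1.45 with an adjusted p of 0.00865 by the authors' deposited table. Ifitm3, which blocks fusion of viral membranes, and Bst2, which encodes tetherin, a tie that holds budding virions to the cell, are the abundant members described above. Both had an adjusted p of 1 and folds of 1.00 and 1.06 toward male liver by the authors' deposited table. The Mx GTPases, which trap viral nucleoproteins, were not called: Mx1 had 0.281 FPKM in female liver and 0.161 FPKM in male liver and Mx2 had 2.47 and 1.90 FPKM. Eif2ak2, which encodes PKR, the kinase that stops translation on viral RNA, had 2.74 and 2.40 FPKM with an adjusted p of 0.804.

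In the ISG15 system, a ubiquitin-like modifier and the protease that removes it, the modifier was called. Isg15 (chromosome 4, 155573533 to 155574927) had means of 5.63 FPKM in female liver and 3.51 FPKM in male liver. It was 1.56-fold higher in female liver by the authors' deposited table, at an adjusted p of 0.000519. Usp18, the protease that also damps receptor signalling, had 1.76 and 1.30 FPKM, a fold of 1.32 and an adjusted p of 0.293 by the authors' deposited table. A p-value above the threshold does not show that Usp18 was alike in the sexes.

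Of the ADP-ribosyltransferases and their ligase partner, Parp14 was called. Parp14 (chromosome 16, 35832964 to 35871468) had means of 3.61 FPKM in female liver and 2.59 FPKM in male liver, a fold of 1.34 and an adjusted p of 0.0274 by the authors' deposited table. Parp9 and the ubiquitin ligase Dtx3l, which act as a pair, had 8.90 and 6.88 FPKM in female and 8.10 and 5.64 FPKM in male liver. Neither passed the threshold, with adjusted p-values of 1 and 0.231. The listed spans of these 2 genes overlap by 558 bases, and whether reads there were counted by strand is not given in the sources used here.

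Of the other interferon-induced members 2 of 6 were called. Rtp4, a chaperone of membrane receptors that dampens the interferon response in mouse (chromosome 16, 23610005 to 23614308), had means of 4.04 FPKM in female liver and 2.74 FPKM in male liver. Its fold was 1.42 with an adjusted p of 0.0269 by the authors' deposited table. Trim30a, a mouse regulator of NF-kB signalling (chromosome 7, 111557540 to 111613707), had 1.57 and 0.948 FPKM, a fold of 1.60 and an adjusted p of 0.00714 by the authors' deposited table. Xaf1, a promoter of apoptosis, had 1.19 FPKM in female liver and 0.869 FPKM in male liver. Ifi44 had 0.542 and 0.399 FPKM, and Ifi27l2a had 1.40 and 0.998 FPKM, with an estimated 70 and 50 reads on its short exons. Ifi35 had 9.19 and 9.22 FPKM. None of these 4 was called. Trim30a and Ifi27l2a have near copies, so their values are uncertain.

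Tap1 and Tap2 encode the partner subunits of the pump that carries peptides to class I molecules, and they lie 7.3 kb apart on chromosome 17. Tap2 (34341424 to 34353266) had means of 10.9 FPKM in female liver and 7.29 FPKM in male liver, with a fold of 1.45 and an adjusted p of 5.69e-05 by the authors' deposited table. Tap1 (34324501 to 34334170) had 5.04 and 3.02 FPKM. Its fold of 1.60 was larger, but with an adjusted p of 0.0812 by the authors' deposited table it was the member just outside the threshold, while Parp14 at 0.0274 was just inside it.

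The authors also compared reads from introns alone, which can come from transcripts not yet spliced. The source of these reads in the poly-A selected libraries was not tested. Intronic levels of the members were low: 37 of 39 were above 0 in both sexes, 18 had a mean of at least 0.1 FPKM and the highest was 1.44 FPKM, for Irf3. By the calls of the authors' deposited table, 1 member was higher in female introns and 0 in male introns, against 1.40% and 1.76% of the 16569 genes above 0 in introns. That member was Oas1g, at 0.0657 FPKM in female liver and 0.0202 FPKM in male liver, with a fold of 2.98 and an adjusted p of 0.00157 by the authors' deposited table. Oas1g has a near copy, and it was not called in gene bodies. Only 6 members had a mean of at least 0.5 FPKM in introns. Of these, 0 were called toward female liver (4.32% of all such genes), and 6 genes are too few to compare with that share. No member reached 2 FPKM there (4.95%). Of the 39 intron ratios 34 lay toward female liver (87.2%), against 49.0% of all 16569 genes.

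For the members called in gene bodies, intron values were mostly toward female liver without passing the threshold. Zbp1 had 0.240 FPKM in female and 0.130 FPKM in male introns, Samhd1 0.104 and 0.0651 FPKM, and Tap2 0.344 and 0.220 FPKM. In the authors' deposited table the intron folds of these 3 genes toward female liver were 1.68, 1.46 and 1.42, beside 2.08, 1.46 and 1.45 in gene bodies. Intron folds there were smaller for Irf7, Ddx58, Oasl2, Ifit3 and Trim30a, at 1.22, 1.09, 1.32, 1.59 and 1.09. Their gene body folds were 1.40, 1.25, 1.72, 1.79 and 1.60. Rsad2, Parp14 and Rtp4 had larger folds in introns, at 2.72, 1.45 and 1.52, beside 1.45, 1.34 and 1.42 in gene bodies. Ifit1 and Ifit2 were the called members whose intron ratio pointed the other way, at 0.00487 and 0.00512 FPKM in female and 0.00679 and 0.00661 FPKM in male liver, levels far below those of their gene bodies. Isg15 was listed at 0.0400 FPKM in female introns and at 0 in male introns. Both comparisons come from the same pools, so introns are not a separate experiment.

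**Figure D4:**
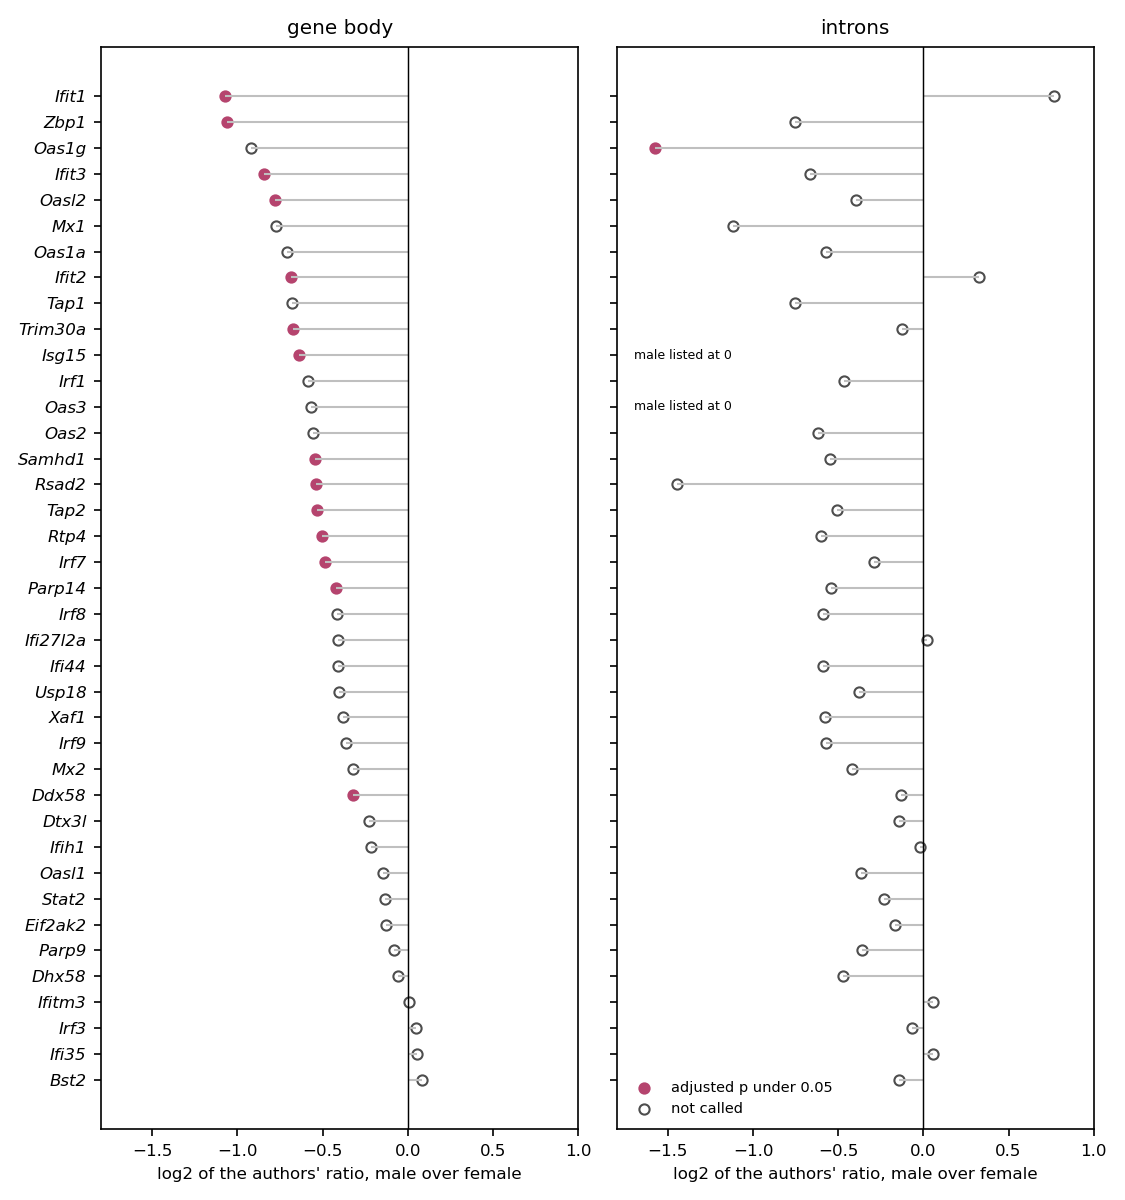
Log2 of the authors' ratio of male over female for each member in gene bodies (left) and in introns (right), ordered by the gene body ratio, with values below 0 higher in female liver. Filled points have an adjusted p under 0.05 (14 in gene bodies, 1 in introns); Isg15 and Oas3 have no point in introns because the male mean is listed at 0.

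The other genes of the pathway were taken from lists of 146 genes, 145 of them in the table, of which 33 were higher in females and 2 in males by the authors' deposited table. Over all genes above 0 FPKM the shares were 5.44% toward female and 4.61% toward male liver, and these are the background for each list below. The interferons themselves were at or near 0: 17 of 20 ligand genes were listed at 0 in both sexes, and the other 3, Ifnk, Ifng and Ifnab, were at no more than 0.0717 FPKM. In the receptor and JAK-STAT list, the receptor chain Ifnar2 had 8.43 and 8.32 FPKM, and the kinase Jak1 12.0 FPKM in both sexes, and neither was called. Stat3, which carries signals of the interleukin 6 family, had 16.6 and 14.7 FPKM and was not called.

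Among 15 sensing adaptors and kinases 1 was called (6.67%), near the share of 5.44% over all genes. Tmem173, which encodes STING, the adaptor of cytosolic DNA sensing, had 0.637 FPKM in female liver and 0.347 FPKM in male liver, with a fold of 1.77 and an adjusted p of 0.0465 by the authors' deposited table. Mavs, the mitochondrial adaptor of the RNA sensors, had 14.7 and 14.1 FPKM, and Trim25, a ligase that acts on RIG-I, had 9.19 and 8.37 FPKM. The kinase Tbk1 had 6.01 and 5.27 FPKM, and none of these 3 was called. Of 13 genes that hold the response in check, 2 were higher in each sex. Ptpn6, a phosphatase found mainly in blood cells, was 1.40-fold and Adar, which edits duplex RNA, 1.25-fold higher in female liver by the authors' deposited table, with adjusted p-values of 0.00129 and 0.0324. Rnaseh2a and Rnaseh2b, subunits of the enzyme that removes ribonucleotides from DNA, had folds toward male liver of 1.51 and 1.52 by the authors' deposited table, with adjusted p-values of 0.000402 and 0.00533. The remaining subunit gene Rnaseh2c, at 12.8 FPKM in females and 14.6 FPKM in males, was not called.

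Of 48 further interferon-induced genes in the table, 12 were higher in females and 0 in males by the authors' deposited table. Ifi205, a DNA-binding protein of the p200 family, had 0.269 FPKM in female liver and 0.0528 FPKM in male liver, with a fold of 4.83 and an adjusted p of 0.000236 by the authors' deposited table. Ifi27l2b, the near copy of Ifi27l2a, and Slfn8, of the Schlafen family, had folds toward female liver of 2.43 and 2.11 by the authors' deposited table. The abundant Lgals9, Ifitm2 and Apol9b, at 172.2, 104.3 and 27.0 FPKM in female and 142.4, 96.8 and 24.1 FPKM in male liver, were not called.

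The interferon gamma associated GTPases, which attack the vacuoles of intracellular microbes, held the largest share of calls among the 7 other lists. Of 18, 12 were higher in female livers and 0 in males by the authors' deposited table, and the median log2 ratio over the list was -1.26. Tgtp1 had 7.08 FPKM in female liver and 1.14 FPKM in male liver, a fold of 5.94 and an adjusted p of 0.000766 by the authors' deposited table. Its near copy Tgtp2 had 5.51 and 0.907 FPKM, and reads may be shared between the copies. The guanylate-binding protein Gbp5 was 3.84-fold higher in female liver by the authors' deposited table, at 1.18 against 0.293 FPKM (adjusted p 0.00698). Iigp1, Gbp11 and Irgm2, at 102.0, 20.8 and 15.02 FPKM in female and 70.7, 17.8 and 9.09 FPKM in male liver, were not called.

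In class I antigen presentation 5 of 20 genes were higher in females and 0 in males by the authors' deposited table. Psmb9 and Psmb8, catalytic subunits of the immunoproteasome, had 14.8 and 18.1 FPKM in female and 8.76 and 11.5 FPKM in male liver. Their folds were 1.63 and 1.51 with adjusted p-values of 0.0203 and 0.00294 by the authors' deposited table. The class I gene H2-Q4 was 1.58-fold higher in female liver there, at 16.1 against 9.84 FPKM (adjusted p 0.000459 by the authors' deposited table); class I genes are close in sequence, so its reads are uncertain. B2m, the shared light chain, H2-Q10 and the chaperone Calr, at 773.1, 467.1 and 214.5 FPKM in female and 659.2, 428.5 and 220.9 FPKM in male liver, were not called.

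**Figure D5:**
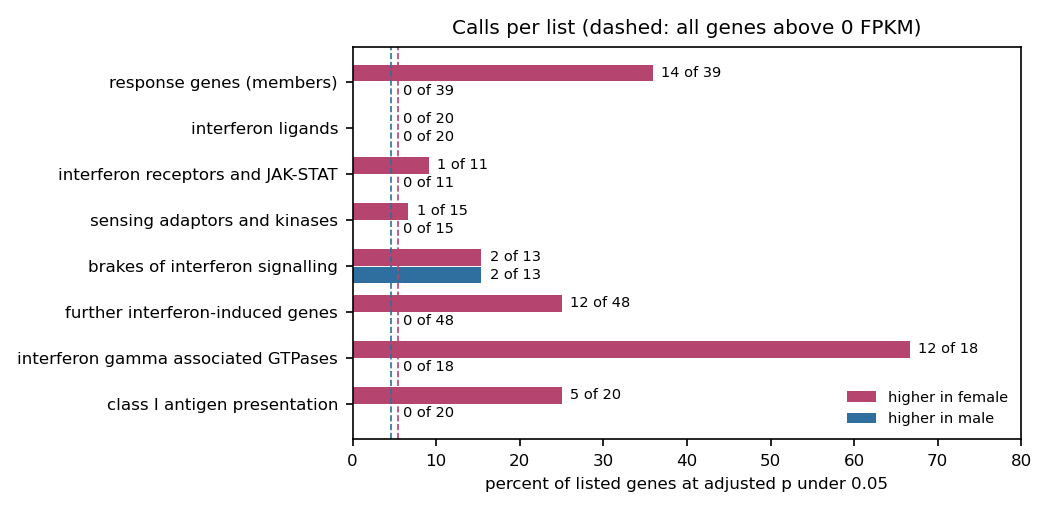
Percent of the genes of each list with an adjusted p under 0.05 in the authors' comparison of gene bodies, split by the sex in which they were higher, with the counts beside the bars. Dashed lines mark the shares over all genes above 0 FPKM (5.44% higher in female, 4.61% higher in male); the members reach 14 of 39 and the GTPases 12 of 18 toward female liver.

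Markers of other cell types differed between the sexes as well, and in bulk liver fewer cells of a type and less RNA per cell cannot be told apart. Of 12 markers of Kupffer cells, the macrophages of the liver, 12 were higher in female liver by the authors' deposited table. Their summed level was 178.9 FPKM in female liver and 114.2 FPKM in male liver, none was listed at 0, and their folds by the authors' deposited table ran from 1.34 to 7.55. The fold of 7.55 was that of Marco, and the next largest was 1.65, for Folr2. Clec4f, found on Kupffer cells alone among liver cells, had 32.8 FPKM in female liver and 22.4 FPKM in male liver, and the scavenger receptor Marco had 9.08 and 1.15 FPKM. The median log2 ratio of the 12 markers was -0.58, beside -0.41 for the interferon response genes. Summed levels of sinusoidal endothelial markers were 91.4 FPKM in female liver and 74.9 FPKM in male liver, with 2 of 10 higher in female liver, and those of stellate cells 83.5 and 65.4 FPKM, with 4 of 9. The part of these cell types in the values of the response genes was not tested.

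Lymphoid, dendritic and monocyte markers were low. Summed over the list, NK cell markers had 2.47 FPKM in female liver and 1.07 FPKM in male liver, with Ncr1 and Gzmb the 2 of 9 higher in female liver by the authors' deposited table. T cell markers summed to 1.89 and 1.15 FPKM, with 2 of 10 higher in female liver, and B cell markers to 1.56 and 1.27 FPKM, with 0 of 8. Monocyte markers summed to 1.75 and 1.12 FPKM with 0 of 6 called, and conventional dendritic cell markers to 2.36 and 1.49 FPKM with 1 of 8 higher in female liver. Plasmacytoid dendritic cells, which make much interferon alpha in infection, had 6 markers summing to 0.425 FPKM in female liver and 0.225 FPKM in male liver; Siglech was higher in female liver and Cox6a2 was listed at 0 in male liver, as was the NK cell marker Eomes. Neutrophil, cholangiocyte and erythroid markers summed to 7.94, 14.98 and 169.7 FPKM in males and to 5.54, 10.2 and 92.1 FPKM in females. Of these, 0 of 7, 1 of 7 and 4 of 7 were higher in male liver by the authors' deposited table. The cholangiocyte call was Spp1, at 8.05 FPKM in females and 12.8 FPKM in males, which made up most of that sum. The erythroid marker Epb4.2 was listed at 0 in females. How far these cells enter the response genes' values was likewise not tested.

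The members lie on 14 chromosomes, none of them a sex chromosome. The female-biased members were spread over chromosomes 2, 4, 5, 7, 12, 16, 17 and 19. By chromosome, 3 of 3 members on chromosome 19 were called, the Ifit genes, beside 1 of 6 on chromosome 5, the oligoadenylate synthetase genes, and 2 of 6 on chromosome 16, Parp14 and Rtp4. The members on chromosomes 5 and 16 do not form single clusters, and differences between these counts were not tested. The 4 members on chromosome 11, Irf1, Dhx58, Ifi35 and Xaf1, held no call.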

How the data were processed

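Liver RNA of CD-1 mice was measured in 3 male and 3 female pools. The submitters' processing notes name TopHat2, featureCounts, edgeR and mm9, without versions or roles. Per the file headers, the deposited columns hold the authors' FPKM averaged by sex, their normalized male to female ratio, a signed form of that ratio (a score, not used), and an adjusted p-value, for gene bodies and for introns. For genes at 1 FPKM or more that ratio exceeded the quotient of the FPKM means by a median factor of 1.04. Folds of genes at 0 are not printed.

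The deposited comparison was described, with calls at an adjusted p under 0.05 in the sex their ratio favours. Planned fits that need values per pool were not run. Whether any liver entered more than 1 pool is not stated, and p-values measure only the spread between these pools, which may be technical. Percent called is over genes above 0 in either sex. Library totals came from single-location genes under 400 bases: a lone read gives a mean fixed by length and total, so totals recur, and the 3 most frequent per sex were taken; which pool each belongs to is unknown. Estimated reads used these totals and exon unions of GENCODE M21 transcripts matched by RefSeq accession. Coordinates are mm9, with starts raised by 1 base to count from 1, and the first of several locations printed (7 members have more than 1). Promoters are RefSeq sequences on GRCm38.p6. The members and gene lists were chosen with earlier results of these data known. Every member is named; of other pathway lists, the 3 largest called folds in each direction and the 3 most abundant uncalled genes at most, plus I830012O16Rik, Gm14446 and 2010002M12Rik, chosen after their values were seen; a gene of the pathway lists is not reported here. Markers are given per list, with examples chosen after their values were seen. Alternatives were adjusted p under 0.01 and 0.1, a 1.5-fold minimum, mean minimums of 0.5 and 2 FPKM, pseudocounts of 0.01, 0.1 and 1, quantile normalization, rescaling without the 50 most abundant genes, and leaving out near copies. Python 3.11.15, numpy 2.4.6, pandas 2.3.3 and matplotlib 3.10.9 were used.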

Additional observations from a re-analysis of the deposited data

How the results depend on the processing

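The count of 14 members higher in female liver was 11 at an adjusted p under 0.01, 15 under 0.1 and 12 without members that have a near copy; it was 7 with a 1.5-fold minimum and 8 where the mean reached 2 FPKM. The count toward male liver was 0 under each of these. In introns the 1 call was lost (0) at mean minimums of 0.5 and 2 FPKM and without near copies. The members' median log2 ratio of -0.41 in gene bodies ran from -0.47 to -0.32 under the other settings, and was -0.27 with a pseudocount of 1 FPKM. In introns the median over 6 members was -0.10, against -0.23 and -0.21 with pseudocounts of 0.01 and 0.1, which moved the median of all genes to -0.15 and -0.13, and -0.42 with no filter; no member has an intron mean of 2 FPKM. Setting the intron comparison beside the gene bodies, 12 members lost the call and kept direction, and Oas1g gained it. Another 5 turned direction, with intron log2 ratios of -0.14 (Bst2), 0.023 (Ifi27l2a), 0.76 (Ifit1), 0.33 (Ifit2) and -0.066 (Irf3). Of these 5, Ifit1 and Ifit2 were called in gene bodies and lost the call as well. The cause was not tested. With a pseudocount of 0.1 FPKM, Mx1, Oas1g and Oas3 moved by over 0.1. Depth limits Mx1 (an estimated 82 female and 47 male reads), Oas1g, Oas3, Ifi27l2a and most intron values. No paired analysis was possible because the deposited columns are means over pools, and leaving out a replicate could not be run for the same reason.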
